A study of Homo sapiens with 9 samples.

Results

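The BCL2 family of apoptosis regulators was followed across 3 genotypes of DMS273, an established line from a human small cell lung cancer. The genes were chosen by name in the deposited count table: BCL2, BCL2L1, MCL1, BAX, BAK1, BID, BCL2L11, BBC3, PMAIP1 and HRK, 10 of the 67140 genes listed. All 10 passed the filter on low counts and were among the 18847 genes tested. The 9 libraries were made from rRNA-depleted total RNA, with 3 libraries per genotype. The ATG7/SQSTM1 KO cells had both genes knocked out with the CRISPRv2 vector, the ATG7 KO cells had ATG7 alone knocked out, and the control cells carried a scrambled guide and are labelled wild type. The labels name no drug treatment. Whether the knockout cells are pools or clones is not stated, so all libraries of a genotype may stem from 1 derived population.

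BCL2 proteins set the threshold at which mitochondria commit a cell to apoptosis. The guardians BCL2, BCL-XL (from BCL2L1) and MCL1 hold the effectors BAX and BAK in check. BH3-only proteins, among them BID, BIM (BCL2L11), PUMA (BBC3), NOXA (PMAIP1) and HRK, bind the guardians or activate the effectors, which then open the outer mitochondrial membrane and let cytochrome c out. ATG7 is the E1-like enzyme that conjugates the LC3 proteins during autophagosome formation, and SQSTM1 encodes the cargo receptor p62. Small cell lung cancer is known for its dependence on BCL2 or MCL1 in many lines, which is why BH3-mimetic drugs have been tried against it.

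What the 10 proteins share, and what gives the family its binding logic, is the BH3 core: a leucine, 3 variable residues, a glycine (alanine in PUMA) and an aspartate. The codons of this core are shown because the BH3 segment takes part in the binding between family members. A search of 1 transcript per gene found the pattern exactly once in each of the 10 coding sequences. The pattern was written from this known core, including the alanine of PUMA, so its presence in all 10 was fixed beforehand. At least 1 match also occurs in 24.8% of 19508 coding genes, so the pattern alone does not mark the family. Each line below gives 27 bases of the GENCODE release 29 coding sequence, 5′ to 3′, with the codons of the leucine and of the glycine-aspartate or alanine-aspartate pair in capitals.
BCL2: CTCcgccaggccGGCGACgacttctcc
BCL2L1: CTGagggaggcaGGCGACgagtttgaa
MCL1: TTAcgacgggttGGGGATggcgtgcag
BAX: CTCaagcgcatcGGGGACgaactggac
BAK1: CTCgccatcatcGGGGACgacatcaac
BID: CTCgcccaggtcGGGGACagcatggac
BCL2L11: TTGcggcgtattGGAGACgagtttaac
BBC3: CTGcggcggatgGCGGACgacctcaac
PMAIP1: CTCaggagatttGGAGACaaactgaac
HRK: CTCaaggcgctaGGCGACgagctgcac
The core begins at residue 29 of the 54 residues of NOXA and at residue 37 of the 91 of HRK, the shortest proteins of the set, and at residue 213 of the 350 of MCL1, the longest.

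On GRCh38, the build of GENCODE release 29, all 10 are annotated as protein-coding genes. The guardians lie on chromosome 18 (BCL2, 63123346 to 63320128), chromosome 20 (BCL2L1, 31664452 to 31723989) and chromosome 1 (MCL1, 150574551 to 150579738), all on the minus strand. The effectors lie on chromosome 19 (BAX, 48954815 to 48961798, plus strand) and chromosome 6 (BAK1, 33572547 to 33580293, minus strand). Of the BH3-only genes, BBC3 shares chromosome 19 with BAX (47220822 to 47232766, minus strand) and PMAIP1 shares chromosome 18 with BCL2 (59899948 to 59904306, plus strand). HRK is on chromosome 12 (116856144 to 116881441, minus strand) and BID on chromosome 22 (17734138 to 17774770, minus strand).

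Library totals ran from 28675576 to 34222098 counts, and mitochondrially encoded genes took 3.87% to 6.04% of a library. The targeted genes followed the labels. ATG7 averaged 10.6 ± 0.55 CPM in ATG7/SQSTM1 KO, 11.7 ± 1.5 CPM in ATG7 KO and 27.1 ± 0.9 CPM in control cells, and SQSTM1 averaged 51.9 ± 3.3, 390.7 ± 4.5 and 376.3 ± 3.5 CPM in the same order (SD, n = 3). The neuroendocrine label held for NEUROD1 (237.5 ± 6.8, 73.3 ± 0.93 and 194.4 ± 3.9 CPM). The summed level of 7 neuroendocrine markers was 427 to 441.1 CPM in ATG7/SQSTM1 KO, 145.1 to 147.5 CPM in ATG7 KO and 415.2 to 422.7 CPM in control libraries. The summed level of 7 fibroblast markers was 331.4 to 352.7, 660.7 to 700.1 and 182.1 to 196.7 CPM, with none at 0, and that of 7 blood cell markers 2.47 to 3.5, 8.42 to 8.82 and 2.44 to 3.23 CPM, with CD3E, LYZ and HBB at 0 throughout. Matrix genes carried the fibroblast sum in ATG7 KO, with COL3A1, LUM and COL1A1 at 327, 224.8 and 99.1 CPM. The receptor gene PDGFRA averaged 5 CPM in ATG7/SQSTM1 KO, 2.23 CPM in ATG7 KO and 2.29 CPM in control cells. PDGFRB averaged 0.614, 1.08 and 0.843 CPM in the same order. The marker sums differ between genotypes beside the changes described below, and their part in those changes was not tested. In bulk RNA, fewer cells of a kind and less RNA per cell cannot be told apart. Levels are CPM, which are counts scaled by library size, here with TMM, and log2 changes come with a standard error (SE) and a Benjamini-Hochberg adjusted p from edgeR's quasi-likelihood test over all 18847 genes. A gene is called changed where that adjusted p is under 0.05.

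MCL1 stood far above the rest of the family. Its libraries held 1888, 1942 and 1910 CPM in ATG7/SQSTM1 KO, 1855, 1914 and 1846 CPM in ATG7 KO and 1993, 1955 and 1959 CPM in control cells. By CPM it ranked 31, 27 and 31 among 19915 protein-coding genes in the 3 genotypes. Divided by exon length, the level of MCL1 was 437.8 ± 6.2 CPM per kilobase in ATG7/SQSTM1 KO, 428.3 ± 8.5 in ATG7 KO and 450.5 ± 4.8 in control cells (SD, n = 3). No other member averaged more than 31.6 CPM per kilobase in any genotype.

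Below MCL1 came the sensitiser NOXA and the effectors. In ATG7/SQSTM1 KO cells the order per kilobase was PMAIP1 (31.6 ± 1.1), BAX (23.2 ± 0.65) and BAK1 (21.3 ± 1.6), with the libraries of BAX and BAK1 overlapping. In ATG7 KO cells BAX (31.4 ± 1.8), PMAIP1 (29.9 ± 1.4) and BAK1 (28.8 ± 1.2) came next, with PMAIP1 overlapping BAX and BAK1 overlapping PMAIP1. In control cells PMAIP1 (27.6 ± 1.6), BAX (19.6 ± 0.41) and BAK1 (18.9 ± 0.13) were separate. BID, BCL2L1 and BCL2L11 followed, between 6.23 and 15.1 CPM per kilobase as group means, and BBC3 lay between 2.61 and 4.34. The guardian BCL2 and the BH3-only gene HRK closed the order. BCL2 had 0.451 ± 0.0086 CPM per kilobase in ATG7/SQSTM1 KO, 0.287 ± 0.033 in ATG7 KO and 0.526 ± 0.041 in control cells, so that BCL2 was lower than BCL2L1 and MCL1 in every genotype. These levels rest on the union of all annotated exons, which overstates the length of genes with long alternative ends such as BCL2 and BCL2L11.

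**Figure D1:**
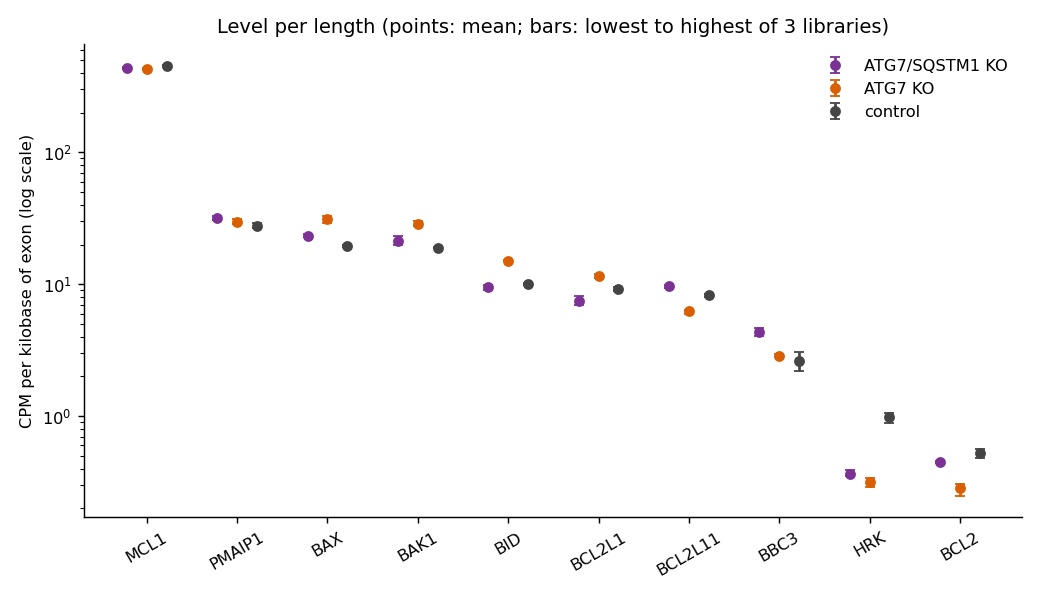
Mean CPM per kilobase of exon (log axis) of the 10 BCL2 family genes, ordered by their control level, in ATG7/SQSTM1 KO (purple), ATG7 KO (orange) and control (grey) cells; bars run from the lowest to the highest of 3 libraries. MCL1 lies at 428.3 to 450.5 and BCL2 at 0.287 to 0.526.

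Cells without ATG7 were first set against control cells, which shows how the family stood where autophagosome formation had lost its E1-like enzyme. Both effectors and BID were higher in ATG7 KO cells, and so was the guardian gene BCL2L1, whereas HRK, BCL2 and BCL2L11 were lower. In all, 5 of the 10 genes rose and 4 fell, a call for 9 of 10 where 56.7% of all genes tested were called, 28.4% higher and 28.3% lower. The ATG7 KO libraries lay wholly above the control libraries for 4 genes and wholly below them for 4, where 62.4% of all genes had groups that did not overlap. The median size of the log2 change, regardless of sign, was 0.5 over the 10 genes and 0.29 over all genes tested, and the signed medians were 0.13 and −0.02.

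The effectors moved together. BAX had 84.8, 82.6 and 76 CPM in ATG7 KO and 51.7, 50.8 and 49.6 CPM in control libraries, a 1.6-fold higher level (log2 change 0.68, SE 0.042, edgeR adjusted p = 9.73e-12). BAK1, its partner at the mitochondrial membrane, had 61.2, 66.5 and 63.6 CPM in ATG7 KO and 41.6, 42.1 and 41.8 CPM in control libraries (0.61, SE 0.048, edgeR adjusted p = 6.15e-10). For both genes every ATG7 KO library lay above every control library.

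Among the guardians, BCL2 and BCL2L1 went opposite ways. BCL2 had 3.62, 3.59 and 2.94 CPM in ATG7 KO and 6.68, 5.72 and 6.15 CPM in control libraries (log2 change −0.87, SE 0.12, edgeR adjusted p = 3.6e-06), on 92 to 219 reads a library. BCL2L1 had 36.6, 39 and 39.3 CPM in ATG7 KO and 29.7, 31.7 and 30.7 CPM in control libraries (0.32, SE 0.054, edgeR adjusted p = 2.91e-05). Neither pair of groups overlapped. Per kilobase, BCL2L1 exceeded BCL2 by a median of 38.6-fold in ATG7 KO libraries (36 to 47.5) and of 17.7-fold in control libraries (15.8 to 19.7). The size of this ratio depends on the overstated exon length of BCL2, so it is read between genotypes only. MCL1 fell by 0.07 on the log2 scale (SE 0.022, edgeR adjusted p = 0.00632), a difference of 1.05-fold that lost its call without control replicate 1 (adjusted p = 0.0831), without ATG7 KO replicate 1 (adjusted p = 0.0615) and without ATG7 KO replicate 3 (adjusted p = 0.0978), and with no filter on low counts (adjusted p = 0.068).

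The BH3-only genes did not share a direction. BID, which links death receptors to mitochondria once caspase-8 cleaves it, had 67.9, 67.2 and 66.6 CPM in ATG7 KO and 43.7, 43.9 and 45.4 CPM in control libraries (log2 change 0.60, SE 0.04, edgeR adjusted p = 2.64e-11). HRK, a BH3-only protein best known from neurons deprived of growth factor, had 2.18, 2.31 and 1.98 CPM in ATG7 KO and 7.23, 6.75 and 6.12 CPM in control libraries. That is a 3.1-fold lower level, the largest difference in the family (−1.63, SE 0.14, edgeR adjusted p = 1.9e-09), and it rests on 62 to 69 reads in ATG7 KO and 191 to 237 reads in control libraries. BCL2L11, which encodes the activator BIM, had 41.6, 42.9 and 39.9 CPM in ATG7 KO and 55.1, 56.6 and 53.2 CPM in control libraries (−0.41, SE 0.042, edgeR adjusted p = 3.42e-08). In these genes, too, the libraries of the genotypes did not overlap.

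PUMA and NOXA, stress-induced BH3-only genes, differed little. BBC3 had 9.21, 9.42 and 8.87 CPM in ATG7 KO and 7.05, 8.1 and 9.8 CPM in control libraries, which overlap (log2 change 0.14, 95% interval −0.07 to 0.36, edgeR adjusted p = 0.255). Without control replicate 3 the BBC3 difference was 0.28 with an adjusted p of 0.0257, over a range from 0.0257 to 0.753 across 13 alternatives. PMAIP1 had 63.9, 70.1 and 66.7 CPM in ATG7 KO and 65.7, 59.7 and 59.6 CPM in control libraries (0.12, SE 0.045, edgeR adjusted p = 0.031), and its groups overlap too. The PMAIP1 call was lost when counts were scaled by library totals (adjusted p = 0.16), with replicate number as a block (adjusted p = 0.0513), and without control replicate 2 (adjusted p = 0.124), control replicate 3 (adjusted p = 0.14) or ATG7 KO replicate 2 (adjusted p = 0.144).

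**Figure D2:**
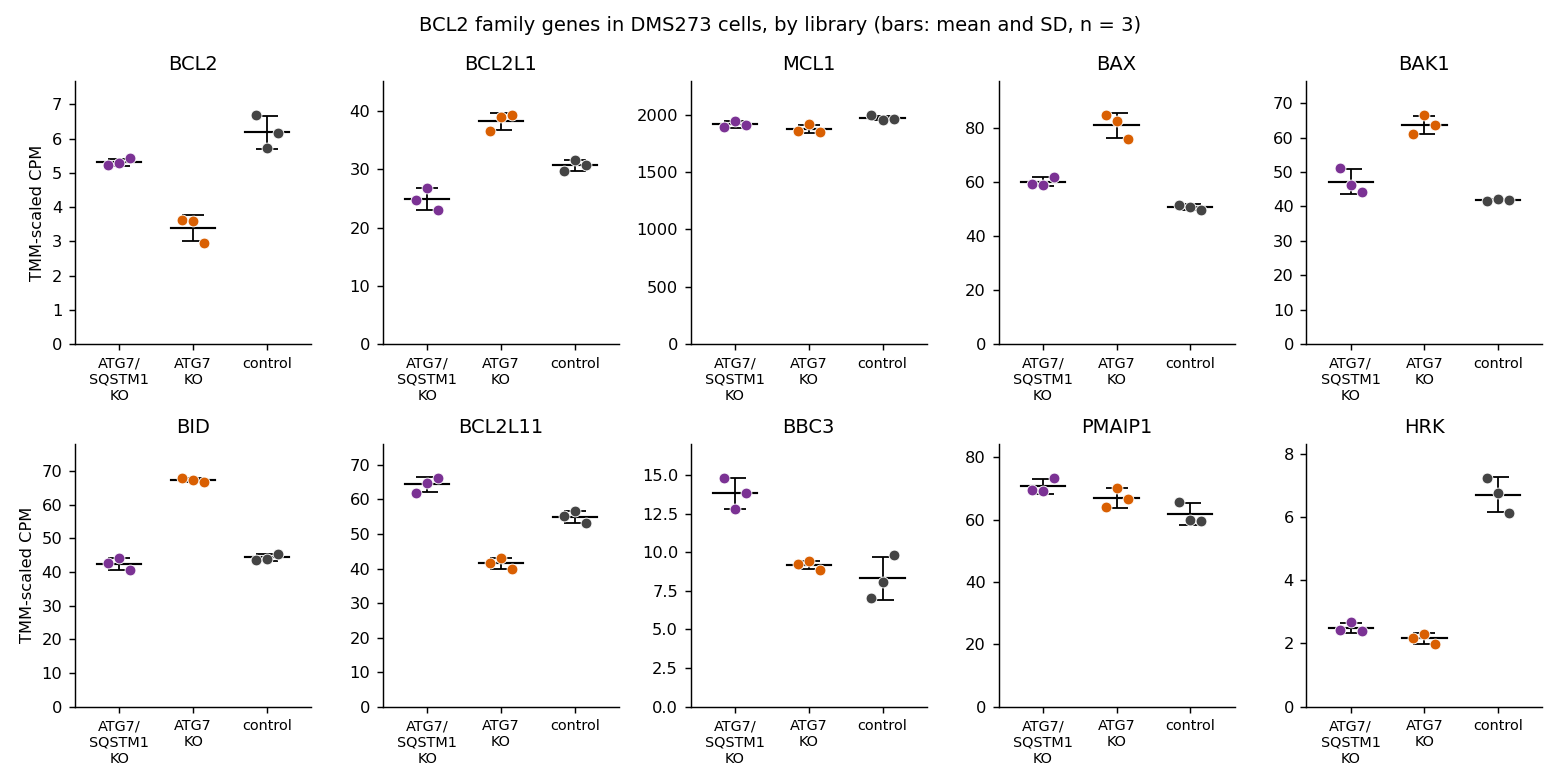
TMM-scaled CPM of each BCL2 family gene in the 3 libraries of ATG7/SQSTM1 KO (purple), ATG7 KO (orange) and control (grey) cells, with the mean and SD as black bars; each panel has its own axis from 0. BAX, BAK1, BID and BCL2L1 are highest in ATG7 KO, BCL2 and BCL2L11 lowest there, HRK is low in both knockouts (at most 2.68 CPM, against 6.12 to 7.23 CPM in control) and BBC3 is highest in ATG7/SQSTM1 KO.

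The second comparison, ATG7/SQSTM1 KO against control, takes the cells in which p62 is lost as well. BBC3 and HRK differed most, BBC3 upward and HRK downward, while 5 genes in all rose and 2 fell where 38.6% of all genes tested were called (19% higher, 19.6% lower). The groups did not overlap for 9 of the 10, 5 higher and 4 lower, against 48.8% of all genes. The median size of the log2 change was 0.22 over the 10 genes and 0.19 over all genes tested, and the signed medians were 0.07 and −0.01. The control libraries are those of the first comparison, so the 2 sets of differences are not independent and are given side by side only.

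PUMA led the rises. BBC3 had 14.8, 12.8 and 13.8 CPM in ATG7/SQSTM1 KO and 7.05, 8.1 and 9.8 CPM in control libraries, 1.66-fold higher without overlap (log2 change 0.73, SE 0.1, edgeR adjusted p = 5.03e-06). BIM and NOXA rose by less. BCL2L11 had 62, 64.8 and 66.2 CPM in ATG7/SQSTM1 KO and 55.1, 56.6 and 53.2 CPM in control libraries (0.23, SE 0.041, edgeR adjusted p = 0.000137). PMAIP1 had 69.4, 69.1 and 73.3 CPM in ATG7/SQSTM1 KO and 65.7, 59.7 and 59.6 CPM in control libraries (0.19, SE 0.045, edgeR adjusted p = 0.00139). All ATG7/SQSTM1 KO libraries lay above the control libraries for these 3 genes.

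HRK was low here as well. The gene HRK had 2.42, 2.68 and 2.39 CPM in ATG7/SQSTM1 KO and 7.23, 6.75 and 6.12 CPM in control libraries, 2.69-fold lower (log2 change −1.43, SE 0.14, edgeR adjusted p = 4.01e-08). BID, at 42.6, 44 and 40.6 CPM in ATG7/SQSTM1 KO and 43.7, 43.9 and 45.4 CPM in control libraries, was not called (−0.07, 95% interval −0.15 to 0.02, edgeR adjusted p = 0.226), and the groups overlap.

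The effectors were modestly higher. BAX had 59.5, 58.8 and 62 CPM in ATG7/SQSTM1 KO and 51.7, 50.8 and 49.6 CPM in control libraries (log2 change 0.25, SE 0.043, edgeR adjusted p = 8.17e-05). BAK1 had 51.2, 46.2 and 44.2 CPM in ATG7/SQSTM1 KO and 41.6, 42.1 and 41.8 CPM in control libraries (0.18, SE 0.049, edgeR adjusted p = 0.00691). Neither gene overlapped between genotypes, but the BAK1 value leaned on 1 library: without ATG7/SQSTM1 KO replicate 1 its log2 change was 0.11 and it was not called (adjusted p = 0.082, over a range from 0.00234 to 0.082 across 13 alternatives).

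Of the guardians BCL2, BCL2L1 and MCL1, only BCL2L1 was called in this comparison. BCL2L1 had 24.7, 26.8 and 23.1 CPM in ATG7/SQSTM1 KO and 29.7, 31.7 and 30.7 CPM in control libraries (log2 change −0.30, SE 0.055, edgeR adjusted p = 0.000154), the opposite sign from ATG7 KO cells against the same controls. BCL2 had 5.22, 5.29 and 5.42 CPM in ATG7/SQSTM1 KO and 6.68, 5.72 and 6.15 CPM in control libraries, a difference that did not pass the threshold although the libraries do not overlap (−0.22, 95% interval −0.47 to 0.03, edgeR adjusted p = 0.16). MCL1 differed by −0.04 (95% interval −0.09 to 0, edgeR adjusted p = 0.142).

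**Figure D3:**
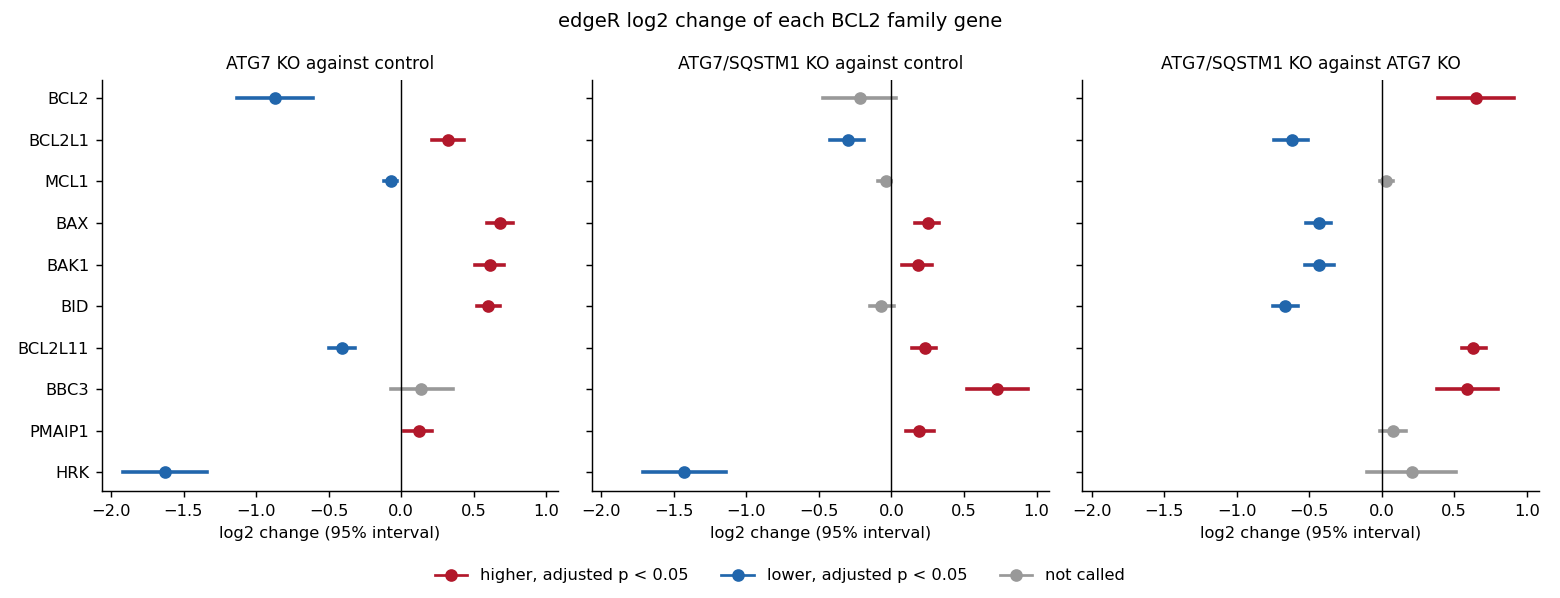
edgeR log2 change of each BCL2 family gene (points) with its 95% interval (lines) in the 3 comparisons; red and blue mark genes past an adjusted p of 0.05 in the higher and lower direction, grey those not called. HRK lies at −1.63 and −1.43 in the 2 comparisons with control, and BBC3 at 0.73 in ATG7/SQSTM1 KO against control.

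The third comparison, ATG7/SQSTM1 KO against ATG7 KO, is the direct test of whether the genotypes differ from one another. BCL2L11, BBC3 and BCL2 were higher in the double knockout, and BID, BCL2L1, BAX and BAK1 were lower. That is 3 rises and 4 falls among 10 genes where 60.5% of all genes tested were called (30.5% higher, 29.9% lower). Scaled by library totals instead, 5 rose and 4 fell. The groups did not overlap for 4 genes in each direction, where 65.9% of all genes had groups apart. The median size of the log2 change was 0.51 over the 10 genes and 0.33 over all genes tested. These values share the ATG7 KO libraries with the first comparison and the ATG7/SQSTM1 KO libraries with the second.

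BIM, PUMA and BCL2 were the higher genes. BCL2L11 averaged 64.3 ± 2.1 CPM in ATG7/SQSTM1 KO and 41.5 ± 1.5 CPM in ATG7 KO cells, 1.55-fold higher (log2 change 0.63, edgeR adjusted p = 2.2e-11). BBC3 averaged 13.8 ± 0.97 CPM in ATG7/SQSTM1 KO and 9.17 ± 0.28 CPM in ATG7 KO cells (0.59, edgeR adjusted p = 2.56e-05). BCL2 averaged 5.31 ± 0.1 CPM in ATG7/SQSTM1 KO and 3.38 ± 0.39 CPM in ATG7 KO cells (0.65, edgeR adjusted p = 0.000119). Their libraries were fully separate between the knockouts.

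Among the lower genes BID had the smallest p. BID averaged 42.4 ± 1.7 CPM in ATG7/SQSTM1 KO and 67.3 ± 0.64 CPM in ATG7 KO cells, 1.59-fold lower (log2 change −0.67, edgeR adjusted p = 4.35e-12). BCL2L1 averaged 24.9 ± 1.9 CPM in ATG7/SQSTM1 KO and 38.3 ± 1.5 CPM in ATG7 KO cells (−0.62, edgeR adjusted p = 2.33e-09). BAX averaged 60.1 ± 1.7 CPM in ATG7/SQSTM1 KO and 81.1 ± 4.6 CPM in ATG7 KO cells, and BAK1 47.2 ± 3.6 and 63.8 ± 2.6 CPM in the same order (both −0.43, edgeR adjusted p = 9.94e-09 and 8.7e-08). Again no library of one knockout reached into the range of the other.

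Ratios of effector to guardian level, per kilobase and within a library, were taken for BAX over BCL2 and over BCL2L1. None was taken over MCL1, the guardian with the highest level. BAX to BCL2 had a median of 51.9 in ATG7/SQSTM1 KO (50.6 to 52.1), 106.6 in ATG7 KO (104.7 to 117.8) and 36.7 in control libraries (35.2 to 40.4). BAX to BCL2L1 had a median of 3.08 in ATG7/SQSTM1 KO (2.81 to 3.44), 2.71 in ATG7 KO (2.48 to 2.96) and 2.07 in control libraries (2.05 to 2.23). The first ratio was separate in all 3 genotypes, while the second overlapped between the knockouts and was above the control range in both. Of the BH3-only genes, the ratio of BCL2L11 to MCL1 was 0.0216 to 0.0227 in ATG7/SQSTM1 KO, 0.0142 to 0.0147 in ATG7 KO and 0.0178 to 0.019 in control libraries. The ratio of PMAIP1 to MCL1 was 0.0696 to 0.0751, 0.0673 to 0.0716 and 0.0594 to 0.0645 in the same order. It overlapped between the knockouts and was above the control range in both. These are ratios of RNA, given as a description without a test.

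HRK, PMAIP1 and MCL1 were not called between the knockouts. For HRK the difference was 0.21 with a 95% interval from −0.10 to 0.51 (edgeR adjusted p = 0.23). Its ATG7/SQSTM1 KO libraries held 2.42, 2.68 and 2.39 CPM and its ATG7 KO libraries 2.18, 2.31 and 1.98 CPM, which do not overlap, and at 62 to 83 reads a library the difference was not detectable. PMAIP1 differed by 0.08 (95% interval −0.01 to 0.17, edgeR adjusted p = 0.138) and MCL1 by 0.03 (−0.01 to 0.08, edgeR adjusted p = 0.214). Both passed the threshold when counts were scaled by library totals, PMAIP1 at 0.12 (adjusted p = 0.0271) and MCL1 at 0.07 (adjusted p = 0.00904).

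BIM needs a caution about strand. On GRCh38, BCL2L11 (chromosome 2, 111119378 to 111168447, plus strand) shares 727 exonic bases with the long noncoding gene MIR4435-2HG on the other strand. The libraries were made strand-specific, but no source says which strand was counted. MIR4435-2HG averaged 28.1 ± 0.39 CPM in ATG7/SQSTM1 KO, 30.3 ± 2.1 CPM in ATG7 KO and 24.8 ± 0.56 CPM in control cells, an order that differs from that of BCL2L11. It rose by 0.29 in ATG7 KO against control (edgeR adjusted p = 0.000113), where BCL2L11 fell. Whether reads from the shared bases affect the BCL2L11 counts was not tested. The other annotated neighbours that share exonic bases with a member, among them ABALON, which lies antisense to BCL2L1, held at most 20 reads in any library.

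The promoters of the genes with the largest rise and the largest fall in ATG7 KO are shown because those genes mark the ends of the family's range. They are RefSeq sequences on GRCh38.p14, from 250 bases before to 50 bases after the annotated start, and 9 of the 10 genes matched the promoter table with 14 starts. Both strands were searched for the E-box CACGTG, the antioxidant response element TGACNNNGC, the ATF4 element core TGATGNAA and the interferon response core, GAAA and GAAA with any 2 bases between them. BAX (chr19:48954625-48954924, plus strand) holds 4 E-boxes, in capitals, beginning 138, 93, 45 and 14 bases before the start. It also holds an antioxidant response element that begins 89 bases before the start and overlaps the second of these E-boxes, so it is not marked apart. At least 1 E-box occurs in 7.26% of 35116 promoters, and as many as 4 occur in 5 of them (0.0142%).
BAX: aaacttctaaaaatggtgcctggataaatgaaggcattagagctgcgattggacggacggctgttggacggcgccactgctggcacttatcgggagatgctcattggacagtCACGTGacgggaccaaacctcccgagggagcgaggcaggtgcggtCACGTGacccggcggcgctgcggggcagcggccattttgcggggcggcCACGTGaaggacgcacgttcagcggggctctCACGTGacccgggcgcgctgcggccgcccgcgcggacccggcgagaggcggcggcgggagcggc
HRK (chr12:116881392-116881691, minus strand) holds an ATF4 element core 75 bases before the start and, on the opposite strand, an antioxidant response element 20 bases before it, both in capitals. These occur in 3.62% and 13.3% of all promoters.
HRK: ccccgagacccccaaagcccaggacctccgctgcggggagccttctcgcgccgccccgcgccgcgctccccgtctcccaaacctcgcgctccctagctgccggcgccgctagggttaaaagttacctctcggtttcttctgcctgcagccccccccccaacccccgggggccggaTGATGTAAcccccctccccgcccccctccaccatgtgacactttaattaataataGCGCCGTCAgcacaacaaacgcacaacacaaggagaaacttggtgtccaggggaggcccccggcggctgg
Over the 14 starts, an E-box was found at 4, an antioxidant response element at 3, the ATF4 element core at 1 and the interferon response core at 1, that of BBC3. Starts of BID overlap, and the same BID E-box is counted at more than 1 of them. The interferon response core occurs in 3.57% of all promoters. A match of letters is not a bound site, and no binding was measured here.

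The other BCL2 relatives had smaller changes in ATG7 KO, with a median size of 0.12 on the log2 scale beside 0.29 over all genes tested. Of 11 listed genes 7 were tested: BCL2A1, BCL2L10, BCL2L14 and BCL2L15 did not pass the filter. Against control, ATG7 KO raised 2 of the 7 and lowered 0, with no call for the other 5, where 56.7% of all genes were called. BCL2L12, an atypical family member, averaged 51.5 ± 1.9 CPM in ATG7 KO and 37.2 ± 2 CPM in control cells (log2 change 0.47, edgeR adjusted p = 8.08e-08), and BCL2L13, a mitochondrial outer membrane protein, rose by 0.12 (edgeR adjusted p = 0.0108). BOK, an effector-like protein, fell in ATG7/SQSTM1 KO against control by 0.31 (edgeR adjusted p = 0.00316) and the BH3-only gene BMF fell by 0.27 (edgeR adjusted p = 0.000343). BCL2L2, the gene of the guardian BCL-w, averaged 46.3 ± 1.1 CPM in ATG7/SQSTM1 KO and 41.9 ± 0.77 CPM in control cells (0.15, edgeR adjusted p = 0.00656), and it shares exons with a readthrough gene. Between the knockouts 1 of the 7 rose (BCL2L2) and 4 fell, where 60.5% of all genes were called.

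Genes of the apoptosome and the caspases went both ways in ATG7 KO. Of 7 apoptosome and caspase genes 4 rose and 2 fell against control, where 56.7% of all genes were called, and their median log2 change was 0.34 beside −0.02 over all genes. CYCS, cytochrome c itself, averaged 596.6 ± 17 CPM in ATG7 KO and 464.8 ± 16 CPM in control cells (log2 change 0.36, edgeR adjusted p = 7.34e-10), while APAF1, the apoptosome scaffold, fell by 0.30 (edgeR adjusted p = 0.000704). Against control, ATG7/SQSTM1 KO raised 0 of the 7 and lowered 2, with CYCS falling by 0.18 (edgeR adjusted p = 3.21e-05). Between the knockouts 2 rose and 4 fell. Of all genes tested, 38.6% were called in ATG7/SQSTM1 KO against control and 60.5% between the knockouts. CYCS has many processed pseudogenes, so its counts are uncertain.

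Several inhibitor of apoptosis genes rose in ATG7 KO. Of 7 tested inhibitor of apoptosis genes and their antagonists, 5 rose and 0 fell in ATG7 KO against control, all 5 of them inhibitors, where 28.4% of all genes were called higher and 28.3% lower. BIRC3, an NF-kB-induced ubiquitin ligase, averaged 16 ± 1.8 CPM in ATG7 KO and 9.69 ± 1.4 CPM in control cells (log2 change 0.73, edgeR adjusted p = 2.29e-06), and XIAP, which blocks caspases directly, rose by 0.38 (edgeR adjusted p = 3.77e-07). With both genes lost, 1 rose against control, XIAP, and 4 fell, where 19% of all genes rose and 19.6% fell. BIRC3 averaged 6.68 ± 0.21 CPM in ATG7/SQSTM1 KO and 9.69 ± 1.4 CPM in control cells (−0.54, edgeR adjusted p = 0.000328). Between the knockouts 0 rose and 6 fell, BIRC3 by 1.26 (edgeR adjusted p = 8.47e-10), where 30.5% of all genes rose and 29.9% fell.

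The death receptor arm, which feeds into the family through BID, was mostly higher in ATG7 KO and mostly lower in ATG7/SQSTM1 KO set against it. In ATG7 KO against control 8 of 10 genes rose and 1 fell, beside 28.4% and 28.3% of all genes. TNFRSF1A, the main TNF receptor, averaged 112.4 ± 2.2 CPM in ATG7 KO and 51.4 ± 3.3 CPM in control cells (log2 change 1.13, edgeR adjusted p = 1.92e-15). CASP8, the protease that cleaves BID, averaged 12.4 ± 0.28 CPM in ATG7 KO and 6.64 ± 0.5 CPM in control cells (0.90, edgeR adjusted p = 1.74e-07). The double knockout had 3 rises and 5 falls against control, beside 19% and 19.6% of all genes. Among the falls were the death receptor FAS by 0.48 and the kinase RIPK1 by 0.43 (edgeR adjusted p = 6.38e-06 and 1.02e-05). Between the knockouts 1 rose and 8 fell, beside 30.5% and 29.9% of all genes. CASP8 was at 4.81 ± 0.67 CPM in ATG7/SQSTM1 KO and 12.4 ± 0.28 CPM in ATG7 KO cells (−1.37, edgeR adjusted p = 3.31e-10). The median log2 change of the 10 genes was 0.44, −0.16 and −0.68 in the 3 comparisons, where that of all genes tested was −0.02, −0.01 and 0.02.

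**Figure D4:**
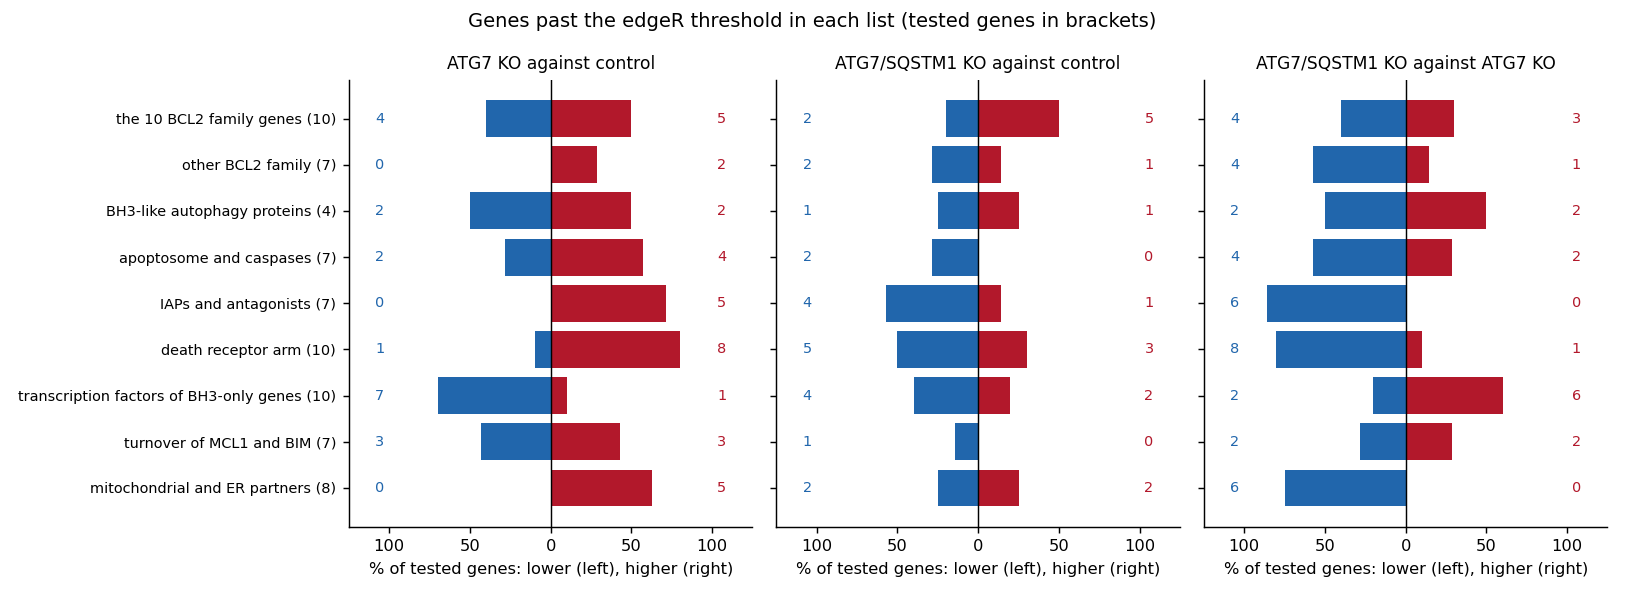
Percent of tested genes past the edgeR threshold in each apoptosis-related list, lower to the left in blue and higher to the right in red, with the counts at the margins and the number tested in brackets. Of the 10 death receptor genes 8 rose in ATG7 KO against control and 8 fell in ATG7/SQSTM1 KO against ATG7 KO. Over all genes tested, 28.4% rose in the former comparison and 29.9% fell in the latter.

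Of 10 transcription factors that are known to drive BH3-only genes, 7 fell and 1 rose in ATG7 KO against control, where 28.3% of all genes fell and 28.4% rose. TP73, which belongs to the same family as TP63, averaged 26.7 ± 0.32 CPM in ATG7 KO and 78.3 ± 3.2 CPM in control cells (log2 change −1.55, edgeR adjusted p = 3.4e-17), and JUN, a driver of HRK and BIM in neurons, averaged 35.3 ± 0.82 and 61.6 ± 0.26 CPM in the same order (−0.80, edgeR adjusted p = 1.64e-13). TP63 was the 1 that rose (1.54, edgeR adjusted p = 2.48e-10). Set against control, ATG7/SQSTM1 KO had 2 rises, JUN by 0.32 and MYC by 0.48 (edgeR adjusted p = 5.9e-07 and 2.45e-13), and 4 falls, including TP73 by 0.40 (edgeR adjusted p = 1.63e-07). Over all genes tested, 19% rose and 19.6% fell in that comparison. Between the knockouts 6 rose and 2 fell, beside 30.5% and 29.9% of all genes, with JUN at 76.8 ± 2.5 CPM in ATG7/SQSTM1 KO and 35.3 ± 0.82 CPM in ATG7 KO cells (1.12, edgeR adjusted p = 6.1e-16).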

How the data were processed

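The authors deposited raw counts per gene, whole numbers in 1 column per library that show no normalization. The submitters' processing notes name HISAT2 and hg38, without versions. The labels' protocols give rRNA depletion, dUTP strand marking and PCR before sequencing, and name neither the counting program nor its strand setting. Missing cells were read as 0, and 1 unlabelled value column was not used. Columns were matched to libraries by title.

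Genes were filtered with filterByExpr (minimum count 10), scaled with TMM (factors 0.977 to 1.01) and tested in edgeR 4.0.16 (R 4.3.3) with a robust quasi-likelihood fit of all 9 libraries by group, with 6 residual degrees of freedom. A Benjamini-Hochberg adjusted p under 0.05 is a call. Intervals are the log2 change with its SE and the fit's t quantile (95%). Scripts were tested on simulated data. Exon lengths and coordinates are from GENCODE release 29, with 58503 of 67140 gene IDs matched. BH3 codons come from 1 principal transcript per gene.

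Alternatives were RLE size factors, library totals, no filter, a mean of at least 1 CPM, DESeq2 1.42.0, the 6 libraries compared alone, replicate number as a block, and each library left out. Libraries of a group differed by more than sampling noise (chi-square per degree of freedom 4.47 to 7.03). The labels do not say whether they are separate cultures, so p-values may measure technical spread. At 28675576 to 34222098 counts a library, precision is limited mainly for HRK and BCL2. Named genes are all 10 members, the targeted genes and up to 4 called genes of each other list with the smallest p. Some genes and 1 gene list are not reported here. The members and lists were chosen with earlier results of these data known.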

Additional observations from a re-analysis of the deposited data

How the results depend on the processing

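Across 13 alternatives per comparison, the number of BCL2 family genes called was 8 or 9 in ATG7 KO against control, 6 or 7 in ATG7/SQSTM1 KO against control and 7 to 9 between the knockouts, and no log2 change of a member or of another named gene changed sign. Of 390 values for members, 377 kept their side of the threshold, and the 13 that did not belong to MCL1, PMAIP1, BBC3 and BAK1, each given beside its result. The count of all genes called ranged from 9850 to 10684, 6361 to 7278 and 10471 to 11411. The causes were not tested. Same-numbered libraries did not deviate together (correlations of their deviations −0.0613 to 0.0234), so the numbers pair nothing. With replicate number as a block the members called were 8, 7 and 7, the PMAIP1 call in ATG7 KO against control being lost, and all genes called were 10564, 7137 and 11262. Leaving out a library gave 8 to 9, 6 to 7 and 7 members, and 9939 to 10182, 6361 to 6538 and 10748 to 10819 genes. HRK and BCL2 rest on 62 to 237 reads a library, so their differences were the least precise.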

Other observations

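Of 8 partners of the family at the mitochondrion and endoplasmic reticulum, 5 rose and 0 fell in ATG7 KO against control, with no call for VDAC2, DNM1L and OMA1. The share called was near the 56.7% over all genes tested, of which 28.4% rose and 28.3% fell. BCAP31, an endoplasmic reticulum protein cleaved by caspase-8, averaged 191.3 ± 7.9 CPM in ATG7 KO and 124.6 ± 3.5 CPM in control cells (log2 change 0.62, edgeR adjusted p = 9.3e-13), and OPA1, which keeps cristae closed around cytochrome c, rose by 0.43 (edgeR adjusted p = 1.14e-11). Set against control, ATG7/SQSTM1 KO had 2 rises and 2 falls, where 38.6% of all genes were called. Between the knockouts 0 rose and 6 fell, where 60.5% were called, 30.5% higher and 29.9% lower. Of 4 autophagy proteins with a BH3-like segment, BECN1 and AMBRA1 rose in ATG7 KO (0.30 and 0.29, edgeR adjusted p = 1.04e-05 and 5.59e-06), while the mitophagy receptors BNIP3 and BNIP3L fell by 0.71 and 0.27 (edgeR adjusted p = 9.24e-05 and 4.51e-06). BNIP3L rose by 0.18 and BECN1 fell by 0.19 in ATG7/SQSTM1 KO against control (edgeR adjusted p = 0.000718 and 0.00258). Of 7 genes for the turnover of the MCL1 and BIM proteins, 3 rose and 3 fell in ATG7 KO against control, 0 rose and 1 fell in ATG7/SQSTM1 KO against control, and 2 rose and 2 fell between the knockouts. Over all genes tested, 56.7%, 38.6% and 60.5% were called in the same order. USP9X, a deubiquitinase of MCL1, averaged 484.3 ± 16 CPM in ATG7 KO and 434.7 ± 2 CPM in control cells (0.16, edgeR adjusted p = 2.01e-05).

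Over the 9 libraries, the protein-coding genes of at least 5 CPM whose log2 CPM was most like that of BAX were AIFM1, which encodes the mitochondrial flavoprotein AIF, CSF1 and TIMP2 (Pearson r of 0.993, 0.992 and 0.991). AIFM1 averaged 128.7 ± 3.4 CPM in ATG7/SQSTM1 KO, 158.2 ± 6.8 CPM in ATG7 KO and 110.6 ± 0.64 CPM in control cells. For HRK they included RALGAPA2 and AKAP12 (0.991 and 0.986). With 3 groups of 3 libraries such values are common: 492 of 11244 genes exceeded 0.95 with BAX and 109 with HRK. They are a description of these libraries.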
